A study of Strongylocentrotus purpuratus with 2 samples.

Results

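Transcripts of the Sox family of transcription factors were followed by RNA sequencing in whole sea urchin embryos of the species Strongylocentrotus purpuratus. Every transcript model whose gene name begins with Sp-Sox was taken, which gave 9 models of 17269 in the tables, and all 9 had a value. They are Sp-SoxC, Sp-Soxb1, Sp-Soxb2, Sp-SoxD1, Sp-Sox6L, Sp-SoxE, Sp-SoxF, Sp-SoxH and a model named only Sp-Sox. The libraries compared were 1 from embryos whose fertilized eggs had received a morpholino against soxC, with 4763995 recovered reads, and 1 from embryos given glycerol as the control, with 4414503. A morpholino is an antisense oligonucleotide that blocks translation or splicing of its target RNA. The labels give no genotype for either group. Both grew in artificial sea water at 15 °C and were collected at 30 hours after fertilization, with the RNA of about 1000 embryos pooled in each library. A morpholino control was not among the libraries, so an effect of targeting soxC and an effect of any morpholino cannot be told apart. With 1 library per group there was no replicate spread and no test between the conditions, and every difference below lies between these libraries. Intervals in parentheses are exact 95% intervals that cover counting error only.

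Sox proteins bind DNA through an HMG box, a domain that bends the double helix, and they usually act together with a partner factor such as a POU domain protein. The family is divided into lettered groups. SoxB proteins keep cells of the early ectoderm and neural plate in a progenitor state, and in sea urchin embryos SoxB1 also restrains beta-catenin activity. SoxC proteins act later, as neural progenitors become neurons, and the sea urchin gene is known to be needed for neurons to form.

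The soxC transcript stood apart from the rest of its family. Sp-SoxC (WHL22.622787.0) had 38052.2 normalized units from 14959 reads in the library labelled SoxC morpholino, against 10632.2 units from 4016 reads in the glycerol control. It had the most reads of the Sox models in the library labelled SoxC morpholino and fewer than both SoxB models in the glycerol control. The counting interval of its unscaled reads was 14720 to 15201 in the library labelled SoxC morpholino and 3893 to 4142 in the glycerol control. The deposited ratio was 3.58-fold (3.46 to 3.71). A morpholino need not lower the RNA it targets, so this value does not check the labels. By number of reads, Sp-SoxC stood at rank 30 of the 12943 models with a value in the library labelled SoxC morpholino and at rank 167 in the glycerol control. Of the models whose reads in both libraries summed to 1000 or more, only Sp-SoxC and the unnamed model WHL22.598028.0, which had the most reads of all, were at least 2-fold higher. The unnamed model was at 3.01-fold. The embryos were sequenced whole, so more cells carrying a transcript and more RNA per cell cannot be told apart for any gene here.

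The SoxB genes were abundant in both libraries and differed little between them. Sp-Soxb1 (WHL22.104606.0) had 24440.5 units from 9608 reads in the library labelled SoxC morpholino, against 28108.0 units from 10617 reads in the glycerol control. Sp-Soxb2 (WHL22.104525.0) had 20398.5 units from 8019 reads in the library labelled SoxC morpholino, against 23790.0 units from 8986 reads in the glycerol control. Both were slightly below their glycerol control values in the library labelled SoxC morpholino, at ratios of 0.87 (0.846 to 0.894) for Sp-Soxb1 and 0.857 (0.832 to 0.884) for Sp-Soxb2. The median of the 8819 measured models, those with a mean of at least 1 CPM (recovered reads scaled to a common library total), was itself at a ratio of 0.866 between the libraries. Relative to that median, Sp-Soxb1 was at 1.004 (0.977 to 1.03) and Sp-Soxb2 at 0.99 (0.961 to 1.02). Both intervals therefore included the ratio of the typical transcript, as did those of 65.5% of the 4567 models whose reads summed to 100 or more. Intervals widen as reads fall, so that share does not apply at the depth of the SoxB models.

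**Figure D1:**
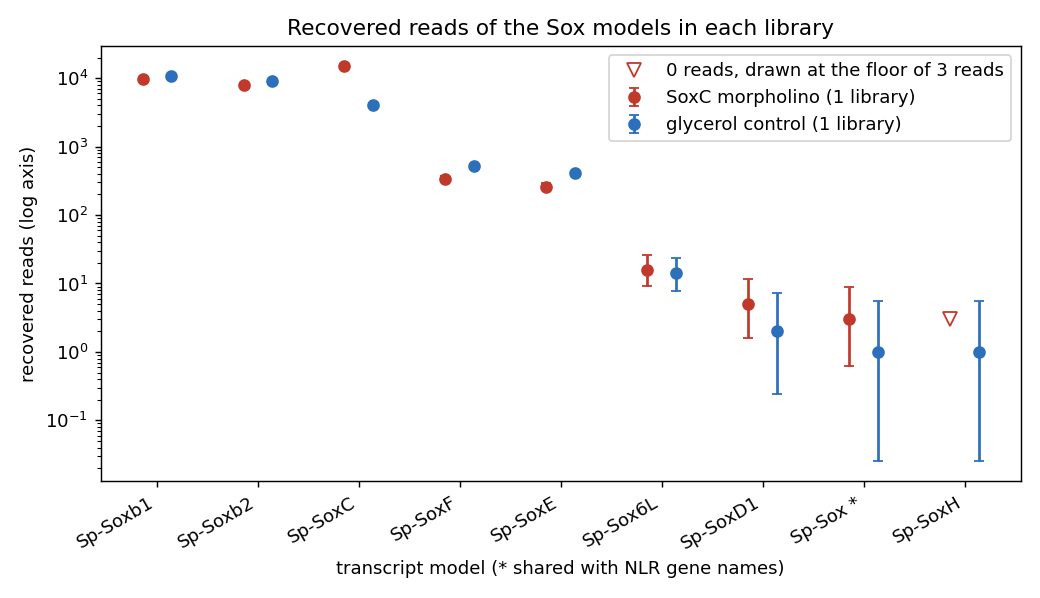
Recovered reads of each Sox model on a log axis, with exact 95% Poisson intervals, for the library labelled SoxC morpholino (left point of each pair) and the glycerol control (right point), 1 library each. Sp-SoxC has 14959 reads against 4016, the SoxB models lie between 8019 and 10617 in both libraries, and the last 3 models have 5 reads or fewer in either library.

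Sp-SoxF and Sp-SoxE were both lower in the library labelled SoxC morpholino, by nearly the same factor. SoxF factors act in endoderm and blood vessels of vertebrates. Sp-SoxF (WHL22.57106.0) had 854.7 units from 336 reads in the library labelled SoxC morpholino, against 1368.7 units from 517 reads in the glycerol control. SoxE factors act in the neural crest and gonad of vertebrates, and in the sea urchin larva the gene marks the coelomic pouches. Sp-SoxE (WHL22.466465.0) had 661.4 units from 260 reads in the library labelled SoxC morpholino, against 1072.2 units from 405 reads in the glycerol control. For Sp-SoxF the counting interval of the unscaled reads was 301 to 374 in the library labelled SoxC morpholino, against 473 to 564 in the glycerol control. That of Sp-SoxE was 229 to 294 in the library labelled SoxC morpholino, against 367 to 446 in the glycerol control. The ratio was 0.624 (0.543 to 0.718) for Sp-SoxF and 0.617 (0.526 to 0.723) for Sp-SoxE, short of a 2-fold difference. Relative to the median of measured models the ratios were 0.721 (0.627 to 0.829) and 0.712 (0.607 to 0.834). Among the 4567 models whose reads summed to 100 or more, 254 had a ratio at or below that of Sp-SoxF and 239 at or below that of Sp-SoxE, which puts them at the 5.56th and 5.23th percentiles. On the same scale Sp-Soxb1 stood at the 47.4th and Sp-Soxb2 at the 44.4th percentile, and Sp-SoxC had the highest ratio of the 4567. An interval below the median ratio was not rare: 651 of the 4567 models, or 14.3%, had one. These models span all depths from 100 reads, and the share at the depth of Sp-SoxF and Sp-SoxE was not computed.

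The SoxD group was thinly covered. In vertebrates its proteins lack an activation domain of their own and modulate other Sox factors. Sp-Sox6L (WHL22.118140.1), named for a SoxD gene of vertebrates, had 40.7 units from 16 reads in the library labelled SoxC morpholino, against 37.1 units from 14 reads in the glycerol control. Its ratio of 1.10 (0.502 to 2.43) leaves a 2-fold difference upward undecided at this depth. Sp-SoxD1 (WHL22.118185.2) had 12.7 units from 5 reads in the library labelled SoxC morpholino, against 5.3 units from 2 reads in the glycerol control. The ratio of 2.40 (0.393 to 25.2) shows no direction. With a mean under 1 CPM, Sp-SoxD1 was not among the measured models.

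Transcripts assigned to the remaining names were at the edge of detection. Sp-SoxH (WHL22.173047.0), of a group known from sperm development in mammals, had 0 reads in the library labelled SoxC morpholino, for which a floor of 3 reads was used and the exact upper limit was 3.69, against 1 read in the glycerol control. The model named Sp-Sox (WHL22.286025.4) had 3 reads in the library labelled SoxC morpholino, against 1 read in the glycerol control. This model stands on 28 rows of each table under 26 different names. Of these names, 24 belong to NLR genes, a large family of immune receptors, so the reads cannot be assigned to a Sox gene and the model was left out of the family sums below. The other 8 models each stand on 1 row under a single name. No fold is given for Sp-SoxH or Sp-Sox, since neither library exceeded 3 reads.

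Over all measured models, a model was called higher or lower when its ratio was at least 2-fold on the log2 scale with 0.5 reads added and its interval excluded a ratio of 1. This rule called 0.658% of the 8819 models higher and 4.67% lower as deposited, and 1.53% higher and 2.35% lower with the median ratio set to 1. Of the 9 Sox models 6 reached the level for this rule, which was set on the mean of both libraries. Of those 6, Sp-SoxC was called higher, none was called lower, and Sp-Soxb1, Sp-Soxb2, Sp-SoxF, Sp-SoxE and Sp-Sox6L met neither. Read against the 4.67% called lower among all models, the lack of a lower call among 6 models is not a result about the Sox genes.

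**Figure D2:**
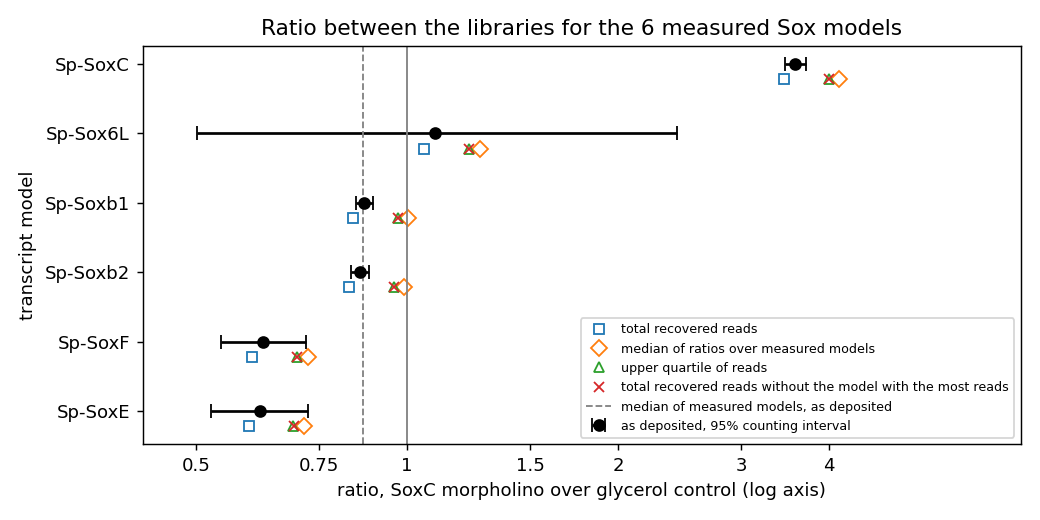
Ratio between the library labelled SoxC morpholino (numerator) and the glycerol control (denominator) for the 6 measured Sox models (log axis), as deposited with exact 95% counting intervals (filled points) and under 4 other scalings (open symbols and crosses). The solid line is a ratio of 1 and the dashed line the median of measured models at 0.866; Sp-SoxC lies at 3.58, the SoxB models lie on the median, and Sp-SoxF and Sp-SoxE lie below it.

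Ratios between family members within each library do not depend on how the libraries were scaled. The reads are not divided by transcript length, so they do not rank the genes by abundance, but the same pair can be compared between libraries. Sp-SoxC had 1.56 reads for each read of Sp-Soxb1 in the library labelled SoxC morpholino, against 0.378 in the glycerol control, a 4.12-fold difference (3.94 to 4.30). Against Sp-Soxb2 the difference was 4.17-fold (3.99 to 4.37). It was 5.73-fold (4.96 to 6.62) against Sp-SoxF and 5.80-fold (4.93 to 6.83) against Sp-SoxE. Against Sp-Sox6L it was 3.26-fold, with the wide interval of 1.47 to 7.13 that few reads give. Only against Sp-SoxD1, at 1.49-fold (0.142 to 9.10), did the interval include no difference among these 6 pairs. All 6 share the same Sp-SoxC reads, so they are not separate results. Sp-SoxC had the highest ratio of the 4567 models whose reads summed to 100 or more, whatever the partner.

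Among the paralogues, the pairs Sp-Soxb1 with Sp-Soxb2 and Sp-SoxE with Sp-SoxF had like ratios, so like proportions within each pair follow from them. Sp-Soxb2 had 0.835 reads for each read of Sp-Soxb1 in the library labelled SoxC morpholino, against 0.846 in the glycerol control, and the ratio of these was 0.986 (0.946 to 1.03). Sp-SoxE had 0.774 reads for each read of Sp-SoxF in the library labelled SoxC morpholino, against 0.783 in the glycerol control, with a ratio of 0.988 (0.798 to 1.22). Across the pairs the proportions shifted. Sp-SoxF relative to Sp-Soxb1 was at 0.718 (0.622 to 0.828) and Sp-SoxE relative to Sp-Soxb1 at 0.709 (0.603 to 0.833), with 0.728 and 0.719 when Sp-Soxb2 was the denominator.

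The make-up of the family reads shifted toward soxC. The 8 Sox models summed to 33203 reads in the library labelled SoxC morpholino, which is 0.697% of its reads (0.689% to 0.704%), against 24558 reads in the glycerol control, or 0.556% (0.549% to 0.563%). Sp-SoxC supplied 45.1% of these reads (44.5% to 45.6%) in the library labelled SoxC morpholino, against 16.4% (15.9% to 16.8%) in the glycerol control. Sp-Soxb1 supplied 28.9% in the library labelled SoxC morpholino, against 43.2% in the glycerol control. Sp-Soxb2 supplied 24.2% in the library labelled SoxC morpholino, against 36.6% in the glycerol control. A share falls when another member of the same sum rises, so these shares are not independent of each other. Without Sp-SoxC the remaining 7 models had 18244 reads in the library labelled SoxC morpholino, against 20542 in the glycerol control, a deposited ratio of 0.853 (0.837 to 0.871), close to the overall median of 0.866. That sum rests almost wholly on the SoxB genes. The shares of all reads depend also on the unnamed model WHL22.598028.0. It had 932437 reads in the library labelled SoxC morpholino, against 298102 in the glycerol control.

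**Figure D3:**
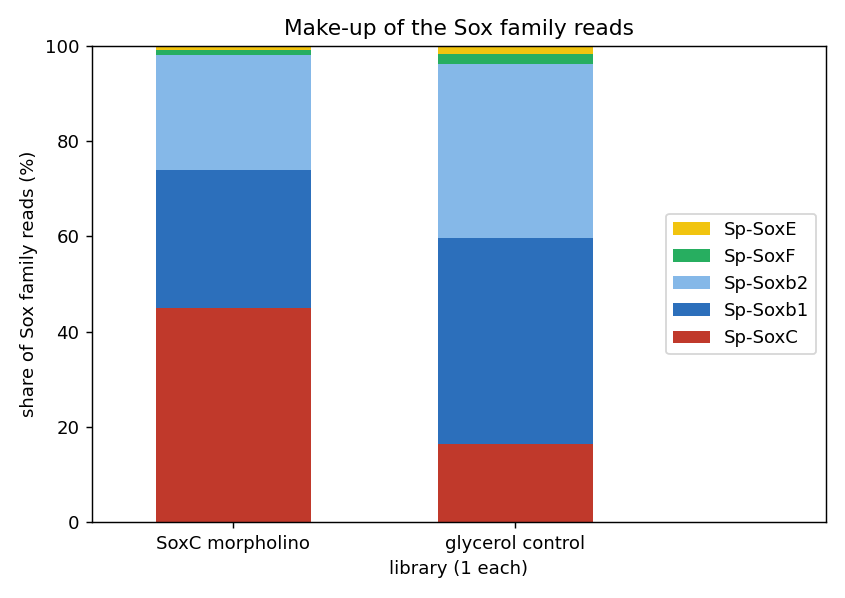
Share of the summed Sox family reads held by each member, in the library labelled SoxC morpholino (left bar) and the glycerol control (right bar); Sp-Sox6L, Sp-SoxD1 and Sp-SoxH, each under 0.1%, are not drawn. Sp-SoxC holds 45.1% against 16.4%.

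No other named model matched Sp-SoxC closely. Likeness was measured as the Euclidean distance between log2 deposited values over the 2 libraries, among models with a descriptive gene name. The nearest to Sp-SoxC was WHL22.202301.0, named for a matrix metalloprotease, at a distance of 0.926, with 24448.1 units in the library labelled SoxC morpholino and 16927.8 units in the glycerol control. Next came Sp-mxi at 1.11 and Sp-Ucp3 at 1.11. Sp-Soxb1 had near neighbours, with Sp-HSP90-like at 0.014, Sp-Glul at 0.098 and Sp-Cdc42 at 0.101. For Sp-Soxb2 the nearest were Sp-G3BP2-like at 0.034, Sp-Sephs2 at 0.056 and Sp-Fscn1 at 0.131. With 2 libraries this likeness says only that the values were close.

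**Figure D4:**
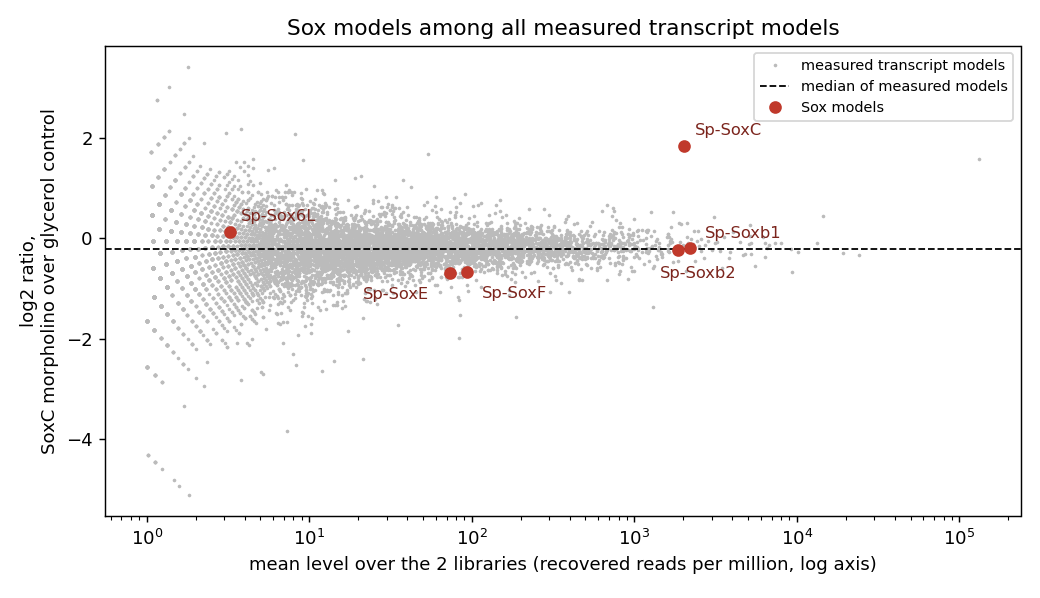
Log2 ratio between the library labelled SoxC morpholino (numerator) and the glycerol control (denominator), with 0.5 reads added, against the mean level in CPM of recovered reads (log axis) for the 8819 measured models (grey) and the 6 measured Sox models (red). The dashed line is the median log2 ratio of -0.21; Sp-SoxC lies at 1.84, far above models of like level, while Sp-SoxE and Sp-SoxF lie at -0.70 and -0.68.

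POU domain factors, DNA-binding partners of some Sox proteins, were read from a list of 4 names. Of these, Sp-Oct1-2 was blank in both libraries and Sp-POU4F2, with 1 read in the library labelled SoxC morpholino and 5 reads in the glycerol control, was below the level. Of the 2 measured, 1 was lower and 1 met neither, beside 4.67% called lower over all measured models as deposited and 2.35% with the median ratio set to 1. Their median log2 ratio, the midpoint of 2 models, was -1.31, beside -0.21 over all measured models, and is not a result about POU factors as a group. Sp-Brn1-2-4, a POU factor of the neural lineage in many animals, was the lower one, with 155 reads in the library labelled SoxC morpholino against 591 reads in the glycerol control, a ratio of 0.252 (0.21 to 0.301). Its direction was thus opposite to that of Sp-SoxC. Sp-Pou6 had 18 reads in the library labelled SoxC morpholino and 27 reads in the glycerol control, a ratio of 0.641 (0.332 to 1.21), so no direction was detectable.

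Other proteins with an HMG box were read from 10 names, of which Sp-TCF and Sp-SSRP1 were blank and Sp-Bbx was below the level. All 7 measured met neither direction of the rule, beside 0.658% higher and 4.67% lower over all measured models, so this count too is not a result about them. Their median log2 ratio was -0.46, beside -0.21 over all measured models, with 3 above the overall median and 4 below. The member with the most reads was Sp-Hmgb3, a chromatin protein, at 12372.9 units in the library labelled SoxC morpholino and 18632.8 units in the glycerol control, a ratio of 0.664 (0.64 to 0.689). Sp-Smarce1, a subunit of the SWI/SNF chromatin remodeller, was at 0.622 (0.575 to 0.672). Sp-Hmg2, another HMGB type protein, was at 0.985 (0.938 to 1.04), and Sp-Ubtf, a factor for ribosomal RNA transcription, at 0.937 (0.865 to 1.01). Sp-Smarce1 and the pair Sp-SoxE and Sp-SoxF thus had like ratios. Sp-Smarce1, Sp-Hmg2 and Sp-Ubtf are named after their values were seen.

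The Wnt and beta-catenin pathway, which SoxB1 counteracts in the early embryo, was read from 26 names. Of these, 4 were blank and Sp-Gsk3 was below the level. The median log2 ratio of the 21 measured was -0.22, beside -0.21 over all measured models, with 10 above the overall median and 11 below, and relative to that median the members ran from -0.77 to 0.83. None of the 21 met the rule, which called 0.658% of all measured models higher and 4.67% lower, so the count is not a result about the pathway. SP-beta-catenin, the pathway's co-activator and its member with the most reads, had 18383.8 units from 7227 reads in the library labelled SoxC morpholino and 20133.9 units from 7605 reads in the glycerol control, a ratio of 0.913 (0.884 to 0.943). The following genes are named after their values were seen. Among ligands, Sp-Wnt8, which patterns the vegetal side of the embryo, was at 0.818 (0.744 to 0.899). Sp-Wnt16 was at 1.39 (1.20 to 1.61), while Sp-Wnt3 was at 0.527 (0.336 to 0.813) and Sp-WntA at 0.498 (0.241 to 0.984), the last from 14 and 27 reads and just short of 2-fold once 0.5 reads were added. The highest member was Sp-LRP6, a co-receptor, at 1.55 (1.25 to 1.92).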

How the data were processed

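Whole-embryo RNA was sequenced from 2 libraries, grouped by their titles. The values the authors deposited are a normalized signal per transcript model. Per the submitters' processing notes, CASAVA 1.8 and Bowtie were used. How reads were counted, whether strand was used, the normalization method and the genome build were not given in the sources used here. The 2 column headers name an identical barcode and lane. Each table has 24565 rows for 17269 models, of which 12943 have a value. The other 4326 are blank in both libraries and were treated as missing. Repeated rows of a model were counted once.

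The signal is a whole multiple of a step of 2.54 in the library labelled SoxC morpholino and 2.65 in the glycerol control. Division gave whole reads within 0.1 for 99.992% and 99.977% of models. The step is shared by all models, so values are not divided by transcript length. Ratios keep the deposited scaling and carry Clopper-Pearson intervals; ratios of ratios carry conditional exact intervals (SciPy 1.17.1, Python 3.11.15). Reads may be copies of one molecule, which the intervals do not cover.

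The members, lists and rules were chosen with earlier results of these data known. Named were all Sp-Sox models, list members that met the rule or had the most reads, and the 3 nearest models of Sp-SoxC, Sp-Soxb1 and Sp-Soxb2. Where a name had several models, the one with the most reads was used. Other scalings, floors, folds and pseudocounts and a binomial test were tried. Related genes can share reads.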

Additional observations from a re-analysis of the deposited data

How the results depend on the processing

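The log2 ratios of the Sox models move with the scaling, all by the same amount. Sp-SoxC was at 1.84 as deposited, 1.79 with total reads, 2.05 with the median of ratios, 1.999 with the upper quartile and 2.001 with totals that leave out the model with the most reads. In that order Sp-Soxb1 was at -0.20, -0.25, 0.0079, -0.042 and -0.041, and Sp-Soxb2 at -0.22, -0.27, -0.012, -0.062 and -0.061, so Sp-Soxb1 changed sign with the median of ratios while Sp-Soxb2 stayed below 0 under these 5 scalings. Sp-SoxF moved from -0.68 to -0.47 with the median of ratios. The other values of Sp-SoxF, and those of Sp-SoxE and Sp-Sox6L, stayed within counting error. Ratios of ratios taken from the deposited values can differ from those of the reads only by rounding, since the step cancels. Their likeness is therefore no check. Against 58 higher and 412 lower models, scaling by the median of ratios left 136 and 207, by the upper quartile 108 and 239, and by totals that leave out the model with the most reads 115 and 239. The counts were 14 and 152 when at least 5 CPM was asked for, 142 and 870 at 1.5-fold, and 25 and 157 at 3-fold. An exact binomial test with Benjamini-Hochberg adjustment, which compares the libraries and not the conditions, gave 28 and 247. The POU median relative to all models was -1.10 from 2 models, and -1.73 with no floor and -1.79 with a floor of 5, where other members enter or leave. At 1.5-fold, where 142 of the 8819 measured models were higher and 870 lower, 3 of the 7 measured HMG box members were lower. In the Wnt list 1 of the 21 measured was higher and 2 were lower at that fold. With total reads, 1 Wnt member was lower, beside 466 of the 8819 measured models. These Wnt counts are not a result about the pathway. No paired analysis was possible because there was only 1 library on each side, and none could be left out.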

Other observations

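Genes of the coelomic pouches and the germ line, where sea urchin SoxE and mammalian SoxH relatives are used, were read from a list of 10 names chosen after the data were seen. Of these, 2 were blank, 4 were below the level and none of the 4 measured met the rule for a 2-fold difference, beside 0.658% higher and 4.67% lower over all measured models, so the count is not a result about these genes. The 4 measured had a median log2 ratio of -0.12, beside -0.21 over all measured models, with 2 above the overall median and 2 below. Sp-FoxC, a forkhead factor, had 318 reads in the library labelled SoxC morpholino and 403 reads in the glycerol control, a ratio of 0.758 (0.652 to 0.88). That interval included 0.866, the median ratio of all measured models. Sp-Pax6 was at 0.835 (0.689 to 1.01). In the germ line, Sp-nanos2, an RNA-binding regulator of translation whose model carries 3 nanos names, was at 1.17 (1.01 to 1.34). Sp-seawi, a Piwi family gene, had 3399 reads in the library labelled SoxC morpholino and 3221 reads in the glycerol control, a ratio of 1.01 (0.966 to 1.06). Sp-SoxE, at 0.617 (0.526 to 0.723), lay below all 4 measured genes of this list. Its interval overlapped those of Sp-FoxC and Sp-Pax6. Of the 4567 models whose reads summed to 100 or more, only 239 had a ratio at or below that of Sp-SoxE. Most genes of any list would lie above Sp-SoxE, so this order is not a result about these genes.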
